A study of Mus musculus with 10 samples.

Results

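Amino acid transporters and enzymes of glutamine metabolism were examined in lung tumours of mice in which the glucose transporter gene Slc2a1 was targeted. The group held 37 genes, 31 transporters and 6 enzymes, taken as the rows of the deposited count table whose symbol matched a given list. The whole table held 39017 genes, so the group was 37 of 39017, and 34 of the 37 were abundant enough to be tested among 16216 tested genes. The study compared the CD45-negative fraction of macrodissected lung tumours, meaning the cells left after magnetic beads had removed leukocytes, by RNA sequencing of 5 KP and 5 KPG1 tumours. All mice were male, of the C57BL/6 background, and were killed 18 weeks and 6 days after tumour initiation. In both groups, tumours were started by an adenovirus given into the trachea that expressed Cre recombinase from the SPC promoter, which is active in alveolar type 2 cells. KPG1 mice were homozygous for floxed Slc2a1 (fl/fl), so the same Cre that started a tumour also acted on the transporter gene. KP mice were the controls. Their genotype field reads fl/wt for that gene while their description field reads WT, so whether KP tumours kept both functional copies of Slc2a1 cannot be told from the labels. Each library came from dissected tumour tissue rather than purified tumour cells, and bulk RNA cannot tell fewer cells of a type from less RNA per cell.

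Cells take up amino acids through families of solute carriers that differ in their substrates and in the ions they move along. Sodium-coupled carriers of the Slc1, Slc6 and Slc38 families bring amino acids in. The Slc7 exchangers, which need a heavy chain to reach the plasma membrane, trade an internal amino acid for an external amino acid. Inside the cell, glutamate dehydrogenase leads carbon from glutamate into the citric acid cycle, glutamine synthetase makes glutamine from glutamate, and transaminases pass the amino group between glutamate, alanine and branched-chain amino acids.

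The libraries held 32427029 to 49534284 counts. Slc2a1, the targeted gene, was measured at 78.7, 127, 123, 109 and 71.7 CPM (read counts per 1000000 of the library size, which was scaled with TMM factors) in KP 1 to KP 5. The KPG1 libraries were at 47.3, 66.7, 40.7, 51.2 and 44.3 CPM, and the groups did not overlap (log2 fold change -1.01, SE 0.20, limma adjusted p 0.0675, exact permutation p 0.00794, the smallest that 252 rearrangements allow). All 10 alveolar type 2 markers, Sftpc among them, were detected. Their summed level was 18450 to 63101 CPM in KP and 48062 to 88001 CPM in KPG1, with 10 of 10 fitted higher in KPG1 and 0 past the threshold. Leukocyte markers summed to 72.4 to 144 CPM in KP and 50.1 to 96.6 CPM in KPG1 (8 of 10 tested fitted lower, 0 past the threshold), endothelial markers to 310 to 1015 and 462 to 1459 CPM (8 of 8 fitted higher, 0 past the threshold), and fibroblast markers to 116 to 285 and 184 to 314 CPM (7 of 7 fitted higher, 0 past the threshold). Of the markers of these 4 lists found in the table, 0 had 3 counts or fewer in every library. Proliferation markers summed to 231 to 399 CPM in KPG1 and to 210 to 272 CPM in 4 KP libraries, but to 46.3 CPM in KP 5 (8 of 8 fitted higher in KPG1, 0 past the threshold). KP 5 and KP 1 stood at opposite ends of the first principal component of all genes (71.8 and -74). Whether cell composition or proliferation had a part in the values below was not tested.

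No member of the group differed between KPG1 and KP tumours past an adjusted p of 0.05. This was 0 of 34 tested members (limma on voom weights, adjusted over all genes), where 0.173% of all tested genes (28 of 16216) passed. At an unadjusted p under 0.05 there were 2 members, 5.88% of those tested, against 11.6% of all genes. They were Slc7a1, the cationic carrier CAT1, and Glul, glutamine synthetase, both with lower values in KPG1, a direction that 6.31% of all genes took at this level. Groups of log2 CPM did not overlap for 1 member, Slc7a1, which is 2.94% of the tested members against 2.81% of all genes. DESeq2, which called 3.46% of all genes, and edgeR's quasi-likelihood test, which called 0.247%, each called 0 members as well. The fitted direction was higher in KPG1 for 19 members and lower for 15, against 8547 and 7669 of the 16216 tested genes. The median log2 fold change of the members was 0.0244 and that of all tested genes 0.0212, while the median size regardless of sign was 0.189 and 0.207.

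These results set limits of unequal width. For 18 members the 95% interval of the log2 fold change lay within 1 on either side of 0, and for 7 of them within 0.5. For the other 16 it reached beyond 1, so a 2-fold difference in 1 direction at least lay inside the interval of those genes. The plot of log2 fold changes by role shows both kinds.

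**Figure D1:**
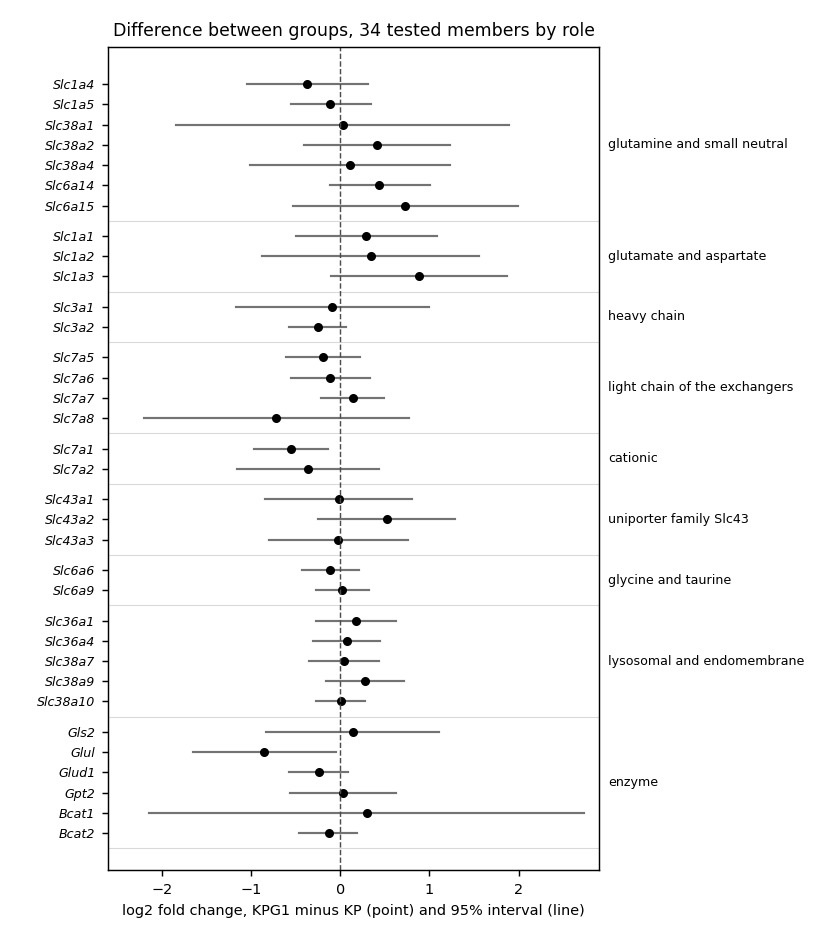
Log2 fold change of KPG1 minus KP (x axis) for the 34 tested members, grouped by role; points are limma estimates and lines their 95% intervals. All intervals but those of Slc7a1 and Glul include 0, and those of Bcat1, Slc7a8 and Slc38a1 are the widest.

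Compared between genes, levels are given as CPM per kilobase of annotated exons, since longer transcripts collect more reads. The highest members were Glud1, glutamate dehydrogenase, at 74.3 ± 13.5 (SD over 10 libraries), the sodium-coupled neutral carrier Slc38a2 at 62.7 ± 30.4, and Glul at 60.1 ± 28.3. Then came the heavy chain Slc3a2 at 49.9 ± 8.41, the glutamine exchanger Slc1a5 (ASCT2) at 37.4 ± 9.92 and the taurine carrier Slc6a6 at 25.4 ± 3.61 CPM per kb. At the low end, Slc7a8, Bcat1, Slc1a2, Slc6a15, Slc38a5, Slc43a1, Slc38a3 and Slc7a10 were all under 0.4 CPM per kb. Every pair of neighbours in this order had overlapping ranges over the 10 libraries, and within libraries some steps were steadier than others. For example, Glud1 was above Slc38a2 in 6 of 10 libraries, Slc3a2 above Slc1a5 in 9 of 10 and Slc6a15 above Slc38a5 in 10 of 10. Among the light chains that pair with Slc3a2, Slc7a6 stood at 19 ± 4.63, Slc7a5 at 12.6 ± 2.91, Slc7a7 at 9.61 ± 1.67 and Slc7a8 at 0.311 ± 0.324 CPM per kb. The glutamate carriers Slc1a1 and Slc1a3 lay near each other at 4.4 ± 1.5 and 4.12 ± 2.32, and Slc1a2 at 0.222 ± 0.148 CPM per kb.

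**Figure D2:**
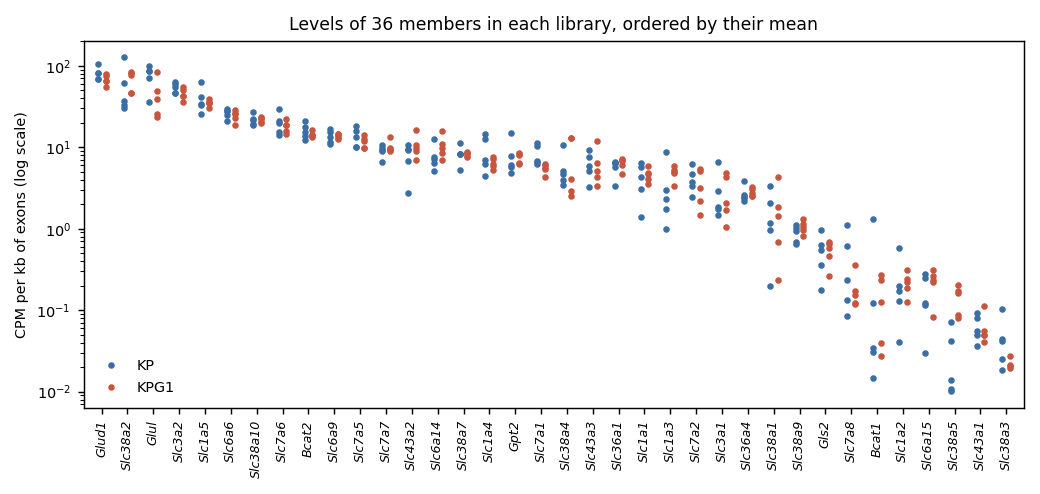
CPM per kb of exons (y axis, log scale) of 36 members in each of the 5 KP and 5 KPG1 libraries, ordered by the mean over 10 libraries. Slc7a10 is not drawn because it had 1 count in KP 1 and 0 elsewhere, and KPG1 5 is missing for Slc38a3 because its count was 0. Means over 10 libraries run from over 50 CPM per kb for Glud1 to under 0.1 for Slc43a1 and Slc38a3.

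Cationic amino acids enter through Slc7a1 and Slc7a2, carriers of arginine, lysine and ornithine. Slc7a1 (ENSMUSG00000041313, chromosome 5, 148327410 to 148399904, minus strand, mm10) was at 76.5, 71.8, 77.9, 118 and 130 CPM in KP 1 to KP 5. The KPG1 libraries, in the same order, held 49.1, 63.6, 62.6, 71.1 and 69.9 CPM. Every KPG1 library was below every KP library, although KPG1 4 at 71.1 and KP 2 at 71.8 CPM were nearly level. The means were 94.9 ± 27 and 63.3 ± 8.78 CPM (SD, n = 5 each), with a log2 fold change of -0.55 (SE 0.19, 95% interval -0.97 to -0.14, unadjusted p 0.0139, limma adjusted p 0.302). The direction was kept in every alternative fit, with log2 fold changes from -0.64 to -0.37 and adjusted p-values from 0.0899 in DESeq2 to 0.526. Without KP 5, which was the highest library, the value was -0.43. Slc7a2 overlapped between groups, at 22.7 to 57.1 CPM in KP and 13.7 to 48.9 CPM in KPG1 (log2 fold change -0.36, SE 0.36, limma adjusted p 0.74), with -0.091 without KPG1 1 and -0.58 without KPG1 3.

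The bases just before the transcription start are shown for Slc7a1 and Glul, the members with the smallest unadjusted p, so that the promoters behind these values can be read. They come from RefSeq on GRCm38.p6, the build also called mm10, run 5′ to 3′ on the gene's strand and end at the base before the annotated start, with CG dinucleotides in capitals. Slc7a1 lies on the minus strand at chr5:148399905-148400154, and Glul on the plus strand at chr1:153899679-153899928.
Slc7a1: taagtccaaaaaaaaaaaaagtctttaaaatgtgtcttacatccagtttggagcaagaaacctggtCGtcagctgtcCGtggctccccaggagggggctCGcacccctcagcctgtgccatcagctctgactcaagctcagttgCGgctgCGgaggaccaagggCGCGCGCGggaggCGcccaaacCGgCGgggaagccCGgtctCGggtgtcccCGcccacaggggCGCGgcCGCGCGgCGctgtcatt
Glul: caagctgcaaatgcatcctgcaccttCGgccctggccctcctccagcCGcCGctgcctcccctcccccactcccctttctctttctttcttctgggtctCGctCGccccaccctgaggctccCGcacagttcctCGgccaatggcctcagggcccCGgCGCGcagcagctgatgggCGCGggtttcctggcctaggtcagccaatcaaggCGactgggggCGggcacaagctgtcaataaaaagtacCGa
These 250 bases held 21 CG dinucleotides in Slc7a1 and 15 in Glul. RefSeq lists a further start of Slc7a1 within the gene, whose 300-base promoter window held 7 CG dinucleotides against 27 for the upstream one, and the median over 41 windows of the 28 members with an entry was 14. Over all 32851 windows the median was 7.

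Several carriers and enzymes of amino acid supply are known targets of the stress-induced factor ATF4, so its element was searched in the same windows, from 250 bases before to 50 bases after each start. The letters searched were TGATGNAA on both strands, with N for any base. They occurred in 3.97% of all windows (1304 of 32851) and in 3 of 41 windows of members, 7.32%, which belong to 2 genes, Slc1a4 and Slc7a7. Neither Slc7a1 nor Glul held the letters there. The matches are shown because they are the places where the group's promoters carry the element, with the 8 matching bases in capitals. They lie at chr11:20332699-20332728 for Slc1a4, and at chr14:54418067-54418096 and chr14:54417927-54417956 for the first and second match of Slc7a7, all printed on the genes' minus strand.
Slc1a4: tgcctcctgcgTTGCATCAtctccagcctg
Slc7a7 first: ccgcttgggctTGATGAAAggttcactggg
Slc7a7 second: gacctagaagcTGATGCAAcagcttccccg
The capitals of Slc1a4 carry the element on the other strand. The second match of Slc7a7 also falls in the window of another annotated start of that gene. Of 8 ATF4-linked genes outside the group, among them Atf4, Asns and Trib3, 7 were fitted lower in KPG1, 1 was fitted higher and 0 passed the threshold. The smallest limma adjusted p was 0.302, for Ddit3.

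Glutamine synthetase and glutamate dehydrogenase are the most abundant enzymes of the group. Glul (chromosome 1, 153899944 to 153909723, plus strand) joins ammonia to glutamate. Libraries KP 1 to KP 5 held 328, 121, 234, 291 and 284 CPM, and those of KPG1 279, 131, 77.9, 85.6 and 165 CPM. KPG1 3 and KPG1 4 were below all KP libraries, while KPG1 1 was as high as most of KP and KP 2 was as low as KPG1 2, so the groups overlapped. The log2 fold change was -0.85 (SE 0.37, 95% interval -1.65 to -0.048, unadjusted p 0.0397, limma adjusted p 0.402). It ranged from -1.12 to -0.66 over the alternatives. Glud1 (chromosome 14, 34310727 to 34345265, plus strand), which converts glutamate to 2-oxoglutarate, was at 438, 289, 287, 339 and 347 CPM in KP and 231, 272, 273, 320 and 333 CPM in KPG1. Of the KPG1 libraries, 3 were below all KP libraries, and the other two lay within the range of KP (log2 fold change -0.24, SE 0.15, limma adjusted p 0.565).

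The remaining enzymes were less abundant or more even between groups. Gls2, the liver-type glutaminase, was at 1.23, 2.17, 1.91, 3.33 and 0.62 CPM in KP and 2.27, 2.4, 1.99, 1.6 and 0.924 CPM in KPG1 (log2 fold change 0.14, SE 0.44, limma adjusted p 0.928). Its exons overlap Spryd4 on the opposite strand. Gpt2, the mitochondrial alanine transaminase, was at 27.3, 44.1, 34.3, 85.1 and 32.1 CPM in KP and 34.9, 48.5, 44.9, 46.6 and 35.9 CPM in KPG1. KP 4 stood apart as the highest, and the other libraries overlapped (log2 fold change 0.032, SE 0.27, limma adjusted p 0.976).

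Branched-chain amino acids pass their amino group to 2-oxoglutarate through Bcat1 in the cytosol and Bcat2 in mitochondria. Bcat2 was at 48.1, 81.7, 60.9, 68.6 and 53.4 CPM in KP and 52.6, 63.9, 53.4, 55.9 and 55.2 CPM in KPG1, with KP 2 highest and KP 1 lowest (log2 fold change -0.13, SE 0.15, limma adjusted p 0.773). Bcat1 was the most variable member. It was at 1.16, 0.283, 0.323, 12.3 and 0.138 CPM in KP and 0.371, 2.53, 2.2, 1.17 and 0.257 CPM in KPG1, an 89-fold range between KP 4 and KP 5 that rests on 6 counts in KP 5. The log2 fold change of Bcat1 was 0.30 (SE 1.11, 95% interval -2.14 to 2.73, limma adjusted p 0.94), whereas DESeq2 gave -1.15. Leaving out single libraries moved the limma value between -0.33 and 1.34, so its direction depended on the tool and on the libraries kept.

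**Figure D3:**
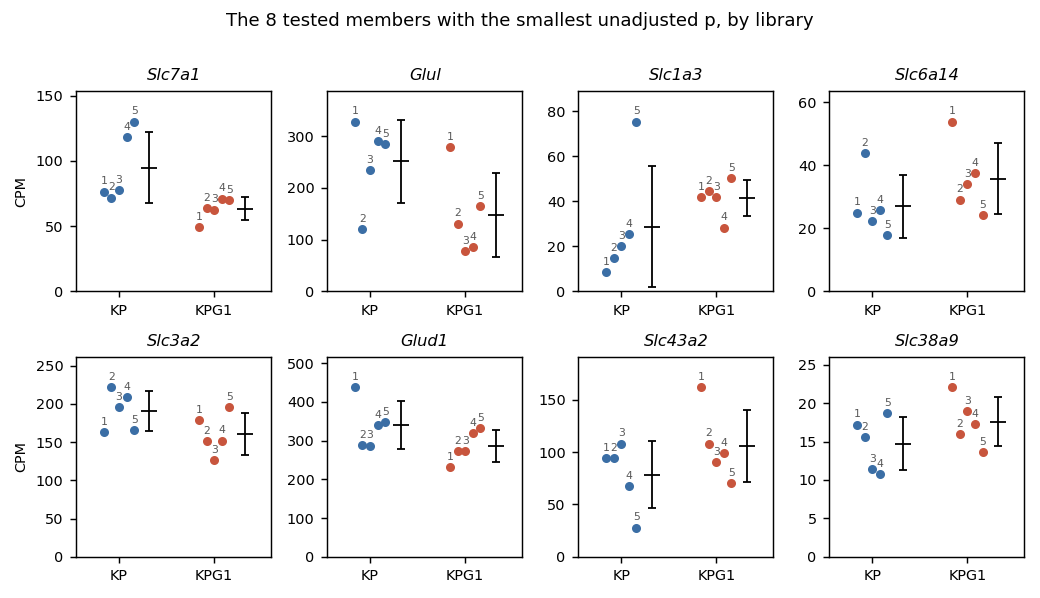
CPM (y axis, from 0) in each library of KP and KPG1 for the 8 tested members with the smallest unadjusted p; numbers beside the points are the replicate, and the black mark and bar are the mean and SD of 5 libraries. The groups are separate for Slc7a1 and overlap for the other genes, and KP 5 is far above the other KP libraries for Slc1a3 and below them for Slc43a2.

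Glutamate and aspartate are carried by Slc1a1, Slc1a2 and Slc1a3, all 3 with higher fitted values in KPG1. Slc1a3 (EAAT1, chromosome 15, 8634124 to 8710764, minus strand) was at 8.53, 14.9, 20.1, 25.3 and 75.4 CPM in KP 1 to KP 5 and at 41.8, 44.5, 42, 28.4 and 50.5 CPM in KPG1 1 to KPG1 5. Every KPG1 library was above KP 1 to KP 4, and KP 5 was above all KPG1 libraries. With all libraries the log2 fold change was 0.88 (SE 0.45, 95% interval -0.1 to 1.87, limma adjusted p 0.479). Without KP 5 it was 1.36 (SE 0.29, 95% interval 0.72 to 1.99) with a limma adjusted p of 0.0494, and Slc1a3 was then the only member called, in a fit that called 1.54% of all genes (250 of 16216). DESeq2 and edgeR's quasi-likelihood test on all libraries gave adjusted p-values of 0.713 each, with log2 fold changes of 0.51 and 0.52. The call therefore rests on leaving out KP 5, the library with the lowest proliferation markers.

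Slc1a1 (EAAT3) was at 11.4 to 52.5 CPM in KP and 29 to 49.1 CPM in KPG1, inside the range of KP (log2 fold change 0.29, SE 0.36, limma adjusted p 0.798). Slc1a2 (EAAT2) was low, at 0.534 to 7.69 CPM in KP and 1.66 to 4.12 CPM in KPG1 (0.34, SE 0.55, limma adjusted p 0.856).

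A role in carrying glutamine or other neutral amino acids was assigned to 9 members, of which 7 were tested. Of these, 5 had higher and 2 had lower fitted values in KPG1. Slc38a2, which accumulates glutamine and alanine with sodium, was at 268, 295, 324, 546 and 1127 CPM in KP and 414, 691, 714, 749 and 415 CPM in KPG1. All KPG1 libraries were above KP 1, KP 2 and KP 3, and KP 5 was above every KPG1 library (log2 fold change 0.41, SE 0.37, limma adjusted p 0.711). Without KP 5 the value was 0.75 (95% interval 0.18 to 1.32, limma adjusted p 0.157) and without KP 1 it was 0.24, with the groups still overlapping when KP 5 was left out. Slc1a5 was at 108, 140, 142, 174 and 262 CPM in KP and 149, 165, 147, 128 and 147 CPM in KPG1, so that the KPG1 values fell inside the range of KP (-0.11, SE 0.20, 95% interval -0.55 to 0.34, limma adjusted p 0.874).

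Slc6a14, a carrier of neutral and cationic amino acids that is coupled to sodium and chloride, was at 25, 43.8, 22.2, 25.9 and 17.8 CPM in KP and 53.8, 29.1, 34.1, 37.6 and 24.2 CPM in KPG1. KPG1 1 was above all KP libraries and the others overlapped with KP (log2 fold change 0.44, SE 0.26, limma adjusted p 0.534). Slc6a15, a carrier of branched-chain amino acids and proline, was scarce, at 0.892, 0.942, 1.91, 2.15 and 0.23 CPM in KP and 1.73, 1.81, 2.4, 2.03 and 0.642 CPM in KPG1 (0.73, SE 0.58, limma adjusted p 0.659). KP 5 and KPG1 5 were the lowest libraries of their groups, with 10 counts in KP 5, and the value was 0.20 without KP 5 and 1.04 without KPG1 5.

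Slc38a1 (SNAT1) varied widely within both groups. It was at 58.2, 16.7, 20.1, 36.1 and 3.42 CPM in KP and 4.11, 11.9, 32.1, 24.9 and 74 CPM in KPG1, a 21.6-fold range between KPG1 5 and KP 5. The fitted log2 fold change was 0.026 (SE 0.85, 95% interval -1.84 to 1.89, limma adjusted p 0.994), and leaving out single libraries moved it between -0.62 and 0.62. Slc1a4 (ASCT1) was at 17.3 to 57.3 CPM in KP and 20.5 to 30.2 CPM in KPG1 (-0.37, SE 0.31, limma adjusted p 0.677), and the value was -0.15 without KP 4 and -0.59 without KP 1. Slc38a4 was at 14.7 to 46.1 CPM in KP and 10.6 to 55.1 CPM in KPG1, where 2 libraries were above and 2 below all of KP (0.11, SE 0.51, limma adjusted p 0.951).

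The system N carriers Slc38a3 and Slc38a5, which can also release glutamine, were too scarce to be tested, as was the Slc7a10 light chain. Slc38a5 had 1, 1, 6, 4 and 1 counts in KP 1 to KP 5 and 9, 14, 17, 16 and 7 counts in KPG1 1 to KPG1 5, in all 13 and 63 counts. On the CPM scale the highest KP library was at 0.162 and the lowest KPG1 library at 0.18, so the groups did not overlap by a narrow margin. In a fit with no filter on low counts, which called 0.164% of all genes (43 of 26233) and 0 of the 37 members, its log2 fold change was 2.27 (unadjusted p 0.000865, limma adjusted p 0.152). Counts this small carry a large counting error. Slc38a3 had 4, 7, 5, 10 and 24 counts in KP and 5, 4, 5, 5 and 0 in KPG1 (-1.44 in the same fit, limma adjusted p 0.521), and a count of 0 allows up to 3 counts. Slc7a10 had 1 count in KP 1 and 0 elsewhere.

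Of the 6 tested chains of the heterodimeric exchangers, 0 passed the threshold. Their heavy chain Slc3a2 (CD98, chromosome 19, 8706882 to 8723369, minus strand) was at 163, 222, 196, 209 and 166 CPM in KP and 179, 151, 126, 152 and 196 CPM in KPG1. Of the KPG1 libraries, 3 were below all KP libraries, and KPG1 1 and KPG1 5 fell within KP (log2 fold change -0.25, SE 0.15, 95% interval -0.57 to 0.069, limma adjusted p 0.536). Slc7a5 (LAT1), which brings in leucine and other large neutral amino acids, was at 37.5 to 68.5 CPM in KP and 35.8 to 51.7 CPM in KPG1 (-0.19, SE 0.19, limma adjusted p 0.733). Slc7a6 was at 64.5 to 135 and 66.2 to 101 CPM (-0.11, SE 0.20, limma adjusted p 0.87), and Slc7a7 at 21.6 to 35.8 and 29.5 to 43.7 CPM (0.14, SE 0.16, limma adjusted p 0.78). Both exchange cationic for neutral amino acids, and Slc7a7 shares exon positions with Oxa1l on the opposite strand.

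Slc7a8 (LAT2) was at 5.57, 1.16, 3.1, 0.425 and 0.666 CPM in KP and 0.764, 0.853, 1.79, 0.6 and 0.616 CPM in KPG1. KP 1 and KP 3 were the highest libraries and KP 4 the lowest, so both extremes lay within KP (log2 fold change -0.72, SE 0.68, limma adjusted p 0.721). The value was -0.21 without KP 1 and -1.16 without KP 4. Slc3a1, the heavy chain of the cystine carrier, was at 3.33 to 15 CPM in KP and 2.4 to 10.9 CPM in KPG1 (-0.087, SE 0.49, limma adjusted p 0.963), and its exons overlap those of Prepl, which had up to 7062 counts. Slc6a9 overlaps B4galt2 in the same way. The strand setting of the counting is not given, so how reads at such shared positions were assigned cannot be told.

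Heavy and light chains form a single complex, so the levels of Slc3a2 and its light chains were compared over the 10 libraries. Slc1a5 with Slc7a5 and Slc1a5 with Slc38a2, which are not such pairs, completed a family of 6 relations. Slc3a2 and Slc7a5 varied together (Pearson r 0.79, permutation p 0.0062, adjusted 0.0372; Spearman rho 0.72, permutation p 0.0248, adjusted 0.149). Without KP 2 and KPG1 3, the libraries farthest from the median of Slc3a2, r was 0.63, and with the mean of each group removed it was 0.77. Slc3a2 had r of 0.11 with Slc7a6, -0.081 with Slc7a7 and -0.18 with Slc7a8, with adjusted permutation p-values of 0.909 each. Slc1a5 and Slc38a2 had r of 0.71 (permutation p 0.0217, adjusted 0.065) and rho of 0.52 (permutation p 0.133, adjusted 0.399). Without KP 1 and KP 5, the lowest and the highest library of Slc1a5, r fell to 0.14, so that relation rests on these 2 libraries, while with the mean of each group removed and all libraries kept it was 0.81. Slc1a5 and Slc7a5 had r of 0.018 (adjusted permutation p 0.909).

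**Figure D4:**
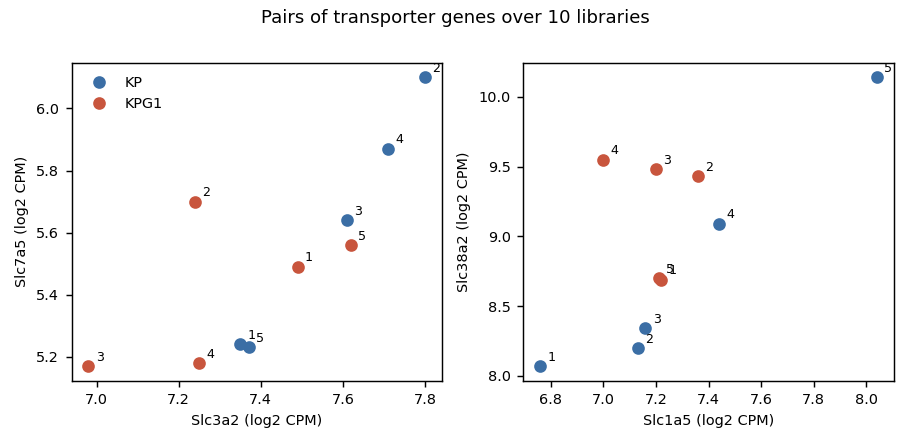
Log2 CPM of Slc7a5 against Slc3a2 (left) and of Slc38a2 against Slc1a5 (right) in the 5 KP and 5 KPG1 libraries, with the replicate number beside each point. The left points rise together (r 0.79), while on the right KP 5 at the top and KP 1 at the bottom carry much of the slope (r 0.71 with and 0.14 without them).

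The facilitative carriers of the Slc43 family and the carriers of taurine and glycine make up 5 members. Slc43a2 (LAT4, chromosome 11, 75531694 to 75577575, plus strand), which moves large neutral amino acids, was at 93.8, 94.5, 108, 67.8 and 27.9 CPM in KP and 162, 108, 90.7, 99.1 and 70.4 CPM in KPG1. KP 5 was the lowest library and KPG1 1 the highest (log2 fold change 0.52, SE 0.35, limma adjusted p 0.598). Without KP 5 the value was 0.19. Slc43a3, known to carry purine bases, was at 14.5 to 41.1 CPM in KP and 15.1 to 53.6 CPM in KPG1 (-0.021, SE 0.35, limma adjusted p 0.988). Slc43a1 (LAT3) stayed under 1 CPM in every library, at 0.207 to 0.534 CPM in KP and 0.233 to 0.633 CPM in KPG1 (-0.019, SE 0.38, limma adjusted p 0.989).

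Slc6a6, the taurine carrier, was at 237, 251, 178, 211 and 238 CPM in KP and 157, 220, 194, 243 and 219 CPM in KPG1. Only KPG1 1 fell outside the range of KP (log2 fold change -0.11, SE 0.15, 95% interval -0.43 to 0.21, limma adjusted p 0.81). Slc6a9, the glycine carrier GlyT1, was at 56.7 to 86.2 CPM in KP and 64.9 to 74.7 CPM in KPG1 (0.022, SE 0.13, 95% interval -0.27 to 0.32, limma adjusted p 0.965). The interval thus leaves out a 2-fold difference for both genes.

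Carriers of lysosomes and other inner membranes return amino acids from protein breakdown to the cytosol, and Slc38a9 also senses lysosomal arginine for the growth kinase complex mTORC1. All 5 members of this kind were fitted higher in KPG1, with log2 fold changes of 0.0046 to 0.28 and limma adjusted p-values of 0.625 to 0.993. Slc38a9 (chromosome 13, 112660751 to 112738749, plus strand) was at 17.2, 15.6, 11.4, 10.8 and 18.7 CPM in KP and 22.1, 16, 19, 17.3 and 13.6 CPM in KPG1. KPG1 1 and KPG1 3 were above all KP libraries, and KPG1 5 was below 3 of them (log2 fold change 0.28, SE 0.20, 95% interval -0.16 to 0.71). Slc38a10 was among the steadiest members, at 121 to 174 CPM in KP and 126 to 150 CPM in KPG1 (0.0046, SE 0.12, 95% interval -0.27 to 0.28). The lysosomal glutamine exporter Slc38a7 was at 21.6 to 46.5 CPM in KP and 31.4 to 35.9 CPM in KPG1. In the same order, Slc36a1 was at 18.8 to 37.5 and 26.3 to 40.6 CPM, and Slc36a4 at 14.4 to 25.5 and 16.6 to 21.1 CPM. The sign of Slc38a10, Slc38a7, Slc36a1 and Slc36a4 changed under at least 1 alternative, and that of Slc38a9 under 0 of 18.

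Much of the variation of the group lay between libraries of 1 genotype. The median SD of log2 CPM was 0.489 in KP and 0.274 in KPG1 for the 34 members, and 0.392 and 0.264 for all tested genes. The SD was larger in KP for 25 members, 73.5%, the same share as over all genes. KP 5 was the highest or lowest library for 17 of 34 members, 50%, against 42.5% of all genes. It was highest for Slc1a5, Slc38a2, Slc1a1, Slc1a3, Slc7a1 and Slc36a4, and lowest for 11, among them all 3 Slc43 genes and Slc38a1. Without KP 5 the median SD of KP was 0.387 for the members and 0.317 for all genes. KP 4 held the highest level of Slc1a4, Slc7a6, Gls2, Gpt2 and Bcat1 and the lowest of Slc7a8, Slc6a9, Slc38a9 and Slc38a10. That is 26.5% of members, against 21% of all genes with KP 4 at an end. Among KPG1 libraries, KPG1 1 was highest for 6 members and lowest for 5, 32.4% of members against 23.7% of all genes. KPG1 2 and KPG1 4 were each at an end for 1 member, 2.94%, against 9.97% and 11.7% of all genes.

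**Figure D5:**
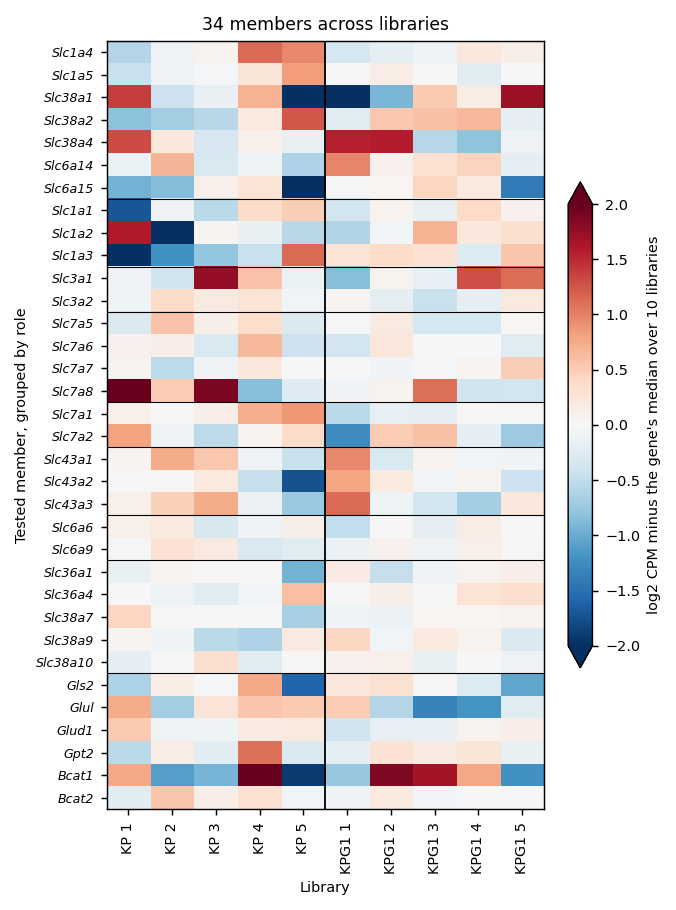
Log2 CPM of the 34 tested members in each library minus the gene's median over 10 libraries (colour), with members grouped by role (rows, separated by lines) and KP left of KPG1 (columns). KP 5, KP 1 and KPG1 1 are most often at an end of a member's range (for 17, 13 and 11 members). These are 50%, 38.2% and 32.4% of members, against 42.5%, 32% and 23.7% of all genes. No role has a uniform colour difference between the groups.

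Other genes of amino acid handling were read from the same fit. Of 82 listed genes, 79 were in the table and 64 were tested. Of these 64, 40 were fitted higher and 24 lower in KPG1, against 8547 and 7669 of all tested genes. Past the threshold there were 0 of the 64 in either direction. At an unadjusted p under 0.05 there were 7, 10.9% of those tested against 11.6% of all genes. Among 10 tested carriers of the plasma membrane outside the group, 5 were fitted higher and 5 lower, and the smallest p was that of Slc38a6 (log2 fold change 0.37, limma adjusted p 0.493). Slc7a11, the cystine-glutamate exchanger, was at 15.4 to 55.1 CPM in KP and 5.61 to 33.6 CPM in KPG1 and overlapped (-0.50, SE 0.52, limma adjusted p 0.75).

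Mitochondrial carriers held 8 tested genes, 5 fitted higher and 3 lower. The aspartate-glutamate carrier Slc25a13 led them, at 28.8 to 32.8 CPM in KP and 32.5 to 46.1 CPM in KPG1, with KPG1 1 within KP (0.33, SE 0.12, unadjusted p 0.0169, limma adjusted p 0.32). Of 12 other enzymes of glutamine, glutamate and proline, 7 were fitted higher and 5 lower, led by Prodh, proline dehydrogenase (-0.53, SE 0.20, limma adjusted p 0.357). Of 9 glutamine amidotransferases, which spend glutamine in nucleotide, hexosamine and cofactor synthesis, 7 were fitted higher and 2 lower, led by Nadsyn1 (-0.33, SE 0.14, limma adjusted p 0.401).

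In the breakdown of branched-chain amino acids, 8 of 10 genes were fitted higher and 2 lower. Dbt, a subunit of the branched-chain ketoacid dehydrogenase, was at 29.2 to 48.7 CPM in KP and 44.4 to 57.1 CPM in KPG1 (0.44, SE 0.17, unadjusted p 0.0233, limma adjusted p 0.352), and 0 of the 10 passed the threshold. The median log2 fold change of these 10 genes was 0.265, against 0.0212 over all tested genes. Of 15 tested genes of amino acid sensing by mTORC1, 8 were fitted higher and 7 lower, with a median of 0.0169, and Depdc5 had the smallest p (0.21, SE 0.12, limma adjusted p 0.54).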

How the data were processed

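RNA from the CD45-negative fraction of 10 mouse lung tumours was sequenced with a stranded mRNA kit. Per the labels and the submitters' processing notes, the authors trimmed reads with Cutadapt, aligned them to mm10 with HISAT2 and counted reads per Ensembl gene with featureCounts 1.4.4, and the deposited counts are whole numbers with no normalization. The strand setting and the annotation release are not given in the sources used here. The deposited log2 values were made by the authors with TMM factors and voom from the same counts. The alleles used to initiate tumours and results on some other genes are not reported here.

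A low-count filter (filterByExpr, edgeR 4.0.16) left 16216 of 39017 genes. TMM factors, voom and limma 3.58.1 were run in R 4.3.3 on all 10 libraries with genotype as the only term, two-sided, with Benjamini-Hochberg adjustment over all genes tested and a threshold of 0.05. filterByExpr took the place of the TPM filter of the study. CPM uses TMM-scaled library sizes, and log2 CPM a prior count of 2. Exon lengths and positions came from GENCODE M21 (GRCm38), the union of all exons of a gene, and promoter windows from RefSeq. Correlations over libraries were tested by 100000 permutations. Fits were tested on simulated data.

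Depth was 32427029 to 49534284 counts per library. Reads carried no molecular identifiers, so the floor of 3 counts for an undetected gene covers counting error only. The intervals of log2 fold changes come from the limma fits and rest on the spread between libraries of a group. The labels give replicate numbers but do not say that samples are separate animals. The p-values therefore take each sample as independent, and whether they extend to animals cannot be told. No duplicate libraries were found (chi-square per degree of freedom at least 54.3 between replicates). The members and gene lists were chosen with earlier results of these data known. Values in every library are printed for the 8 tested members with the smallest unadjusted p, the 6 highest per kb, the 4 with the largest SD over libraries, the 6 enzymes and Slc2a1. Of the other genes of the pathway, the 1 with the smallest p in each list is named; Slc7a11, and single counts of Slc38a3, Slc38a5 and Slc7a10, were added after their values were seen. Alternatives were edgeR's quasi-likelihood test, DESeq2 1.42.0, RLE factors, library size alone, limma on the deposited log2 values, no filter, a mean TPM of at least 20, a weight per library, a replicate block, a looser threshold of 0.1 and leaving out each library.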

Additional observations from a re-analysis of the deposited data

Results flagged for a closer look

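In 4 of 70 sets of 5 libraries searched (34 members and Slc2a1 in each group), the highest or lowest library lay far from the others by Dixon's gap test, where chance gives about 1 in 20. Slc6a15 was at -0.53 log2 CPM in KPG1 5 and at 0.83 to 1.29 in the other KPG1 libraries. Slc7a7 was at 5.45 in KPG1 5 and at 4.89 to 5.02 in the others. In KP 5, Slc36a1 was at 4.24 and in the other KP libraries at 5.03 to 5.23, whereas Slc36a4 was at 4.67 in KP 5 and at 3.86 to 4.08 in the others.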

How the results depend on the processing

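No alternative with all 10 libraries called a member. Leaving out single libraries gave 0 to 1 member calls in all and 0 to 1 in the direction higher in KPG1, the call being Slc1a3 without KP 5. Members at an unadjusted p under 0.05 numbered 0 to 2 higher and 1 to 2 lower when a library was left out, 1 lower with edgeR's quasi-likelihood test, 1 higher with no filter, and 2 higher and 3 lower with a weight per library. The median log2 fold change of the members ran from -0.104 (without KP 5) to 0.0496. All genes called numbered 10 higher and 18 lower, and 125 and 423 with DESeq2, 51 and 177 with a weight per library, 23 and 79 at an adjusted p under 0.1, 3 to 68 and 2 to 182 when a library was left out (both highest without KP 5), and 29, 29 and 31 lower with edgeR, a mean TPM of at least 20 (7611 genes, 21 members) and no filter. With a replicate block 4 and 1 genes and 0 members were called. Same-numbered libraries correlated at -0.161 to 0.076, and 1 of 5 KP libraries correlated best with its own number, so the numbers were not taken as pairs. Slc2a1 passed the threshold with DESeq2 (-1.04), with a weight per library (-1.13) and without KP 5, with -1.13 to -0.92 over the libraries left out.

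Of the 34 members, 17 kept their sign in every alternative, 7 higher and 10 lower. The other 17 changed sign, and the cause was not tested. Leaving out 1 library moved several members that kept their sign by over 1.5 times: to 0.28 without KPG1 1 (Slc6a14), -0.077 without KP 2 (Slc7a5), 0.031 without KP 2 (Slc7a7), 0.19 without KP 5 (Slc43a2), -0.018 without KPG1 1 and -0.20 without KP 3 (Slc6a6), 0.17 without KP 4 (Slc38a9), -0.15 without KP 1 (Glud1), -0.03 without KP 2 and -0.22 without KP 1 (Bcat2), and 0.54 without KP 1 (Slc1a3). With DESeq2 and edgeR, in that order, log2 fold changes were -0.063 and -0.049 for Slc1a2, 0.0026 and 0.0058 for Slc43a3, -0.015 and -0.0023 for Slc38a7, -0.015 and -0.0044 for Slc38a10, -0.022 and -0.0088 for Gls2, -0.10 and -0.081 for Gpt2, and -1.15 and -1.12 for Bcat1, and with DESeq2 Slc6a9 was at -0.007. Slc38a10 was at -0.0077 with RLE factors and -0.0082 at a mean TPM of at least 20, Slc43a3 at 0.0082 with library size alone, and Bcat1 at -0.25 with the replicate block. With a weight per library, Slc38a4 was at -0.088, Slc3a1 at 0.091, Slc6a9 at -0.042, Slc38a7 at -0.023, Slc38a10 at -0.022 and Gls2 at -0.17. When libraries were left out, the ranges that crossed 0 were -0.24 to 0.076 (Slc1a5), -0.62 to 0.62 (Slc38a1), -0.21 to 0.39 (Slc38a4), -0.068 to 0.50 (Slc1a1), -0.11 to 0.80 (Slc1a2), -0.32 to 0.25 (Slc3a1), -0.22 to 0.046 (Slc7a6), -0.26 to 0.13 (Slc43a1), -0.31 to 0.15 (Slc43a3), -0.051 to 0.10 (Slc6a9), -0.0057 to 0.29 (Slc36a1), -0.0011 to 0.22 (Slc36a4), -0.12 to 0.17 (Slc38a7), -0.044 to 0.076 (Slc38a10), -0.21 to 0.42 (Gls2), -0.12 to 0.31 (Gpt2) and -0.33 to 1.34 (Bcat1). Of the correlations, Slc3a2 with Slc7a7 changed from -0.081 to 0.51 without KP 2 and KPG1 3 and to 0.11 with group means removed, and Slc1a5 with Slc7a5 from 0.018 to -0.041 with group means removed.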
